A study of Mus musculus with 167 samples.

Results

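Lymphoid-primed multipotent progenitors (LMPPs) that held transcripts of both Top2a and Mki67 were compared with LMPPs that held neither. The members were chosen by their measured TPM, a unit of transcript abundance that has 1 common total across cells. A kept cell, one with 1000 or more genes at TPM 1 or more, was called positive with both genes at TPM 1 or more and negative with both under 1. The rule gave 55 positive and 24 negative cells of 130 kept cells and 168 columns in all. The other 51 kept cells had only 1 of the pair, are called mixed below and entered neither group. Cells came from the marrow of wild-type, untreated female C57BL/6J mice of 4 or 14 months. They had been sorted as lacking mature lineage markers and CD150, carrying Sca-1, c-Kit and CD34, and bright for Flt3, and were captured singly on a Fluidigm C1 chip. No label names an animal or the number of mice behind a chip, so each age counts as 1 sample. The 14-month columns carry a set number, 4 or 5, which no label or header explains. Every gene below was read in the same cells that the rule sorted, so all differences are descriptions without a test, and intervals of shares (exact Clopper-Pearson, 95%) cover counting error only.

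LMPPs are early blood progenitors with the potential to form lymphocytes, granulocytes and monocytes. Top2a encodes topoisomerase II alpha, which untangles sister chromatids, and Mki67 encodes Ki-67, a protein that coats mitotic chromosomes. Both transcripts accumulate from S phase to mitosis and are low in resting cells. Promoters of many genes with this timing hold CCAAT boxes, bound by the factor NF-Y, and the element TTTGAA, known as CHR, through which the DREAM and MuvB complexes act.

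The promoters of the 2 genes of the rule and of Cdk1 and Ccnb1, the kinase and the cyclin that drive entry into mitosis, are shown because Cdk1 and Ccnb1 were higher in the cells chosen by the other pair. Each line gives the 250 bases before the start, on the gene's strand, from RefSeq on build GRCm38.p6, with matches to CCAAT (or its complement ATTGG) and TTTGAA (or TTCAAA) in capitals. All 4 genes lie on the minus strand.
Top2a at chr11:99024190-99024439: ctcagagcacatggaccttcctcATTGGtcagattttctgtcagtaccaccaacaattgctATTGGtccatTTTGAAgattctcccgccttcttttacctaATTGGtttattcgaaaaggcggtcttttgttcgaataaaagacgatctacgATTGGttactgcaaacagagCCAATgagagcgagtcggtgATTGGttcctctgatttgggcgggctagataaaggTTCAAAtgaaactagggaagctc
Mki67 at chr7:135716380-135716629: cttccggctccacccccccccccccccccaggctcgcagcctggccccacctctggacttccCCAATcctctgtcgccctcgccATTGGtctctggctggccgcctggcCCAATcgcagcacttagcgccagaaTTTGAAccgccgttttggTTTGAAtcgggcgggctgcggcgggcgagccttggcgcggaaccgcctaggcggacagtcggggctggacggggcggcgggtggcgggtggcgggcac
Ccnb1 at chr13:100786487-100786736: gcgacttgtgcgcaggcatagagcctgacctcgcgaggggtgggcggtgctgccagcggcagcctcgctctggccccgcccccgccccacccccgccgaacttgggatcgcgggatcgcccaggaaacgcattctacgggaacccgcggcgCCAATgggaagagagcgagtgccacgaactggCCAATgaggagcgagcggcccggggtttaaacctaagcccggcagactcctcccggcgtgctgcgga
Cdk1 at chr10:69352913-69353162: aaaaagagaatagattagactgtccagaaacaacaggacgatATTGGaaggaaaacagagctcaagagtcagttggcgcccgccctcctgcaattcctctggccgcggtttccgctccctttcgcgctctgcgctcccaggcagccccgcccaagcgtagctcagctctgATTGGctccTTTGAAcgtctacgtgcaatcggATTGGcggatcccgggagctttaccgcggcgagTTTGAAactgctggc
Top2a had 6 CCAAT and 2 TTTGAA matches in its stretch and Mki67 had 3 and 2. Cdk1 had 3 and 2, and Ccnb1 had 2 and 0. For the shares that follow, both strands were searched over 300 bases, from 250 before to 50 after the start, and matches to the 2 motifs can share an end base. Of 55 promoters of 49 of the 56 measured G2/M genes, 72.7% held CCAAT and 65.5% held TTTGAA, and 52.7% held both. Among 37 promoters of S phase genes these shares were 70.3%, 16.2% and 10.8%. Over all 32851 promoters of the table they were 37.4%, 17.9% and 6.95%. A match describes letters only and shows no binding.

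The values that chose the cells left a gap between the groups. Top2a in positive cells ran from 7.46 through a median of 250.2 to 1618 TPM at 4 months and from 4.44 through 548.9 to 1410 at 14 months. Mki67 ran from 2.54 through 37.1 to 244.3 TPM and from 1.29 through 47.4 to 661.2. No negative cell passed 0.83 TPM of Top2a or 0.17 of Mki67, and 14 of the 24 had both at 0. Of the mixed cells, 29 had only Top2a, with Mki67 at up to 0.68 TPM, and 22 had only Mki67, with Top2a at up to 0.45. The plot of the 2 genes in each cell shows the mixed cells along both axes, where the rule puts them.

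**Figure D1:**
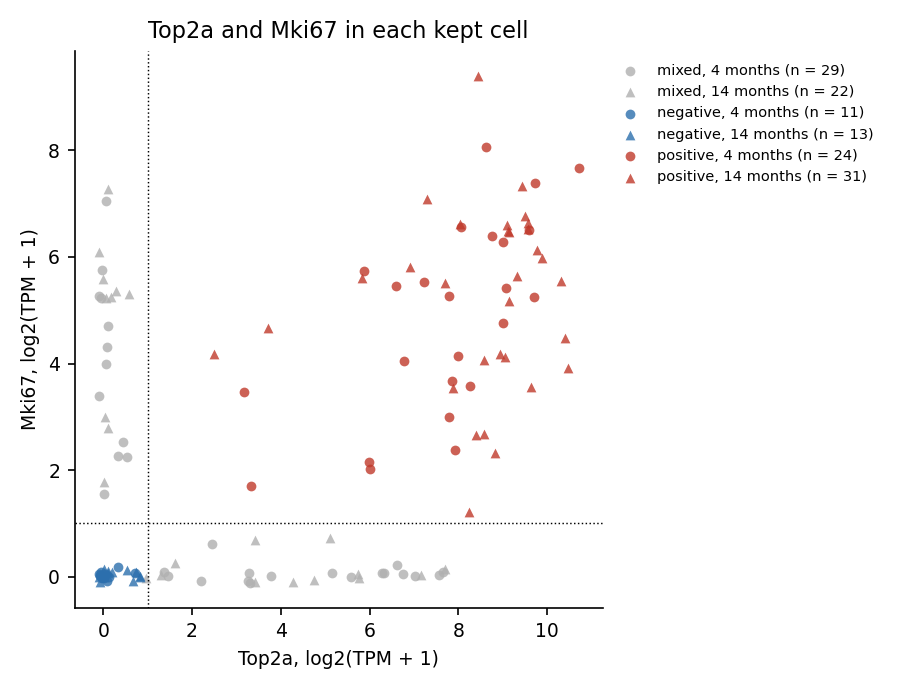
Top2a (x axis) and Mki67 (y axis) in each of the 130 kept cells, as log2(TPM + 1) with slight jitter. Colours mark the classes, circles 4-month and triangles 14-month cells, and dotted lines TPM 1. The 55 positive cells fill the upper right, and the 24 negative cells sit at the origin.

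At 4 months, 24 of 64 kept cells were positive (37.5%, interval 25.7 to 50.5%). At 14 months 31 of 66 were (47.0%, interval 34.6 to 59.7%). The share was 12 of 29 in set 4 (41.4%) and 19 of 37 in set 5 (51.4%), and these intervals overlap. Negative cells made up 11 of 64 (17.2%) and 13 of 66 (19.7%). Of the 13, set 4 held 8 and set 5 held 5, so every value given by set rests on few negative cells. Positive cells also had more genes detected. At 4 months the number ran from 2692 through a median of 4998 to 6848 in positive cells and from 1066 through 3494 to 4324 in negative cells. At 14 months it ran from 1041 through 3887 to 6160 and from 1043 through 2575 to 3439. The groups overlapped at both ages, with the upper end held by positive cells. Mitochondrial transcripts had a median share of 11.1% and 13.3% in positive and negative cells at 4 months and of 21.0% and 15.2% at 14 months. Of the 38 columns left out for fewer than 1000 genes, 22 would have been negative, 3 positive and 13 mixed. The number of reads behind a TPM value is not known from these values. The table holds 84 columns of each age, while 83 cells are labelled at 14 months. Among the kept cells, 5 pairs, all of 14 months, correlated across genes above 0.75, and they held 4 positive cells and 1 negative cell. All 5 of these cells were in set 5, so values given for set 5 include them. The closest pair (0.97) joined a mixed cell of set 4 with a mixed cell of set 5. A mixed cell was also paired with a negative cell (0.905) and a mixed with a positive cell (0.777). Results without the 5 positive or negative cells of these pairs are given at the end of the report.

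A gene was measured when it reached TPM 1 in at least 10% of cells, as the mean of the shares in both groups at both ages, which 9091 genes did. A gene can pass through the group where it is high. The difference given is the mean log2(TPM + 1) of positive minus negative cells, taken within each age and averaged over both ages. Its median over all measured genes was 0.63 (0.76 at 4 months and 0.52 at 14 months), and 82.8% of genes had a positive sign. Differences below are relative to that median, and a gene counts as called when it lies at least 1, or 2-fold, beyond it. Over all measured genes, 15% were called higher and 4.78% lower on average, 20.3% and 13.7% at 4 months, and 16% and 8.84% at 14 months. Genes found in more cells differed more: the median gene found in 10 to 20% of cells was at -0.30, that in 70 to 80% at 0.61, and that in 90 to 100% at -0.15. As a second view, 11 positive cells were paired with 11 negative cells of the same age (4 and 7 pairs) within 300 genes detected, so that these values rest on 22 cells. In these the median over all genes was 0, with 17.8% called higher and 14.4% lower. The part of the number of genes detected in any list's difference was not tested beyond these paired values.

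G2/M phase genes stood far higher in positive cells. Of 56 measured members of 57, 48 were called higher and 0 lower, against 15% and 4.78% of all measured genes. Of the 56, 55 lay above the median gene, and the median relative difference was 2.51 (2.35 at 4 months, 2.63 at 14 months). It was 2.60 in set 4, 2.48 in set 5 and 1.49 in the paired cells. In the paired cells 36 were called higher and 1 lower, against 17.8% and 14.4% of all measured genes. Members overlap in timing with the genes that chose the cells. Taken cell by cell, the list's mean log2(TPM + 1) ran from 1.29 through 4.10 to 6.34 in positive cells and from 0.12 through 0.85 to 1.55 in negative cells. Of the 55 positive cells, 51 lay above the highest negative cell. Mixed cells resembled the negative ones in their median, 1.09, though 1 reached 5.09.

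Cdk1 (ENSMUSG00000019942, chromosome 10, 69335146 to 69352938, minus strand) ran in TPM from 0 through 57.5 to 478.5 in positive and from 0 through 0 to 43.8 in negative cells at 4 months. At 14 months it ran from 0 through 57.9 to 906.0 and from 0 through 0 to 3.55. It was found in 42 of 55 positive (76.4%, interval 63.0 to 86.8%) and 4 of 24 negative cells (16.7%, interval 4.74 to 37.4%), and 21 of the 31 positive cells of 14 months exceeded every negative cell of that age. Its relative difference was 3.80. Ccna2, cyclin A2 of S and G2 phase, was found in 33 of 55 positive cells (60.0%) and 0 of 24 negative cells, a count that allows a share of up to 12.5% by 3 cells of 24 and 14.2% by the exact interval. Ccnb1, cyclin B1, was found in 25 of 55 (45.5%, interval 32.0 to 59.4%) and 3 of 24 (12.5%, interval 2.66 to 32.4%). It reached 1290 TPM in a positive cell and 7.42 in a negative one. Among positive cells, 19 held both cyclins, 14 only Ccna2, 6 only Ccnb1 and 16 neither. Cdk1 was present with Ccnb1 in 23 of the 25 positive cells that held Ccnb1. Detection of these transcripts thus varied among positive cells, as the plots of single genes show. The part of the number of genes detected in this was not tested.

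Genes of mitosis filled most of the 10 highest places, counted without the 2 genes of the rule. Cks1b, a small partner of cyclin-dependent kinases, was at 4.94 and found in 50 of 55 positive and 7 of 24 negative cells. Birc5, or survivin (chromosome 11, 117849251 to 117855743), was at 4.91. It ran from 0 through 139 to 1095 TPM in positive cells and from 0 through 0 to 7.47 in negative ones. Cdca8 (4.41), which like Birc5 is part of the chromosomal passenger complex, and Ube2c (4.23), the ubiquitin enzyme of the anaphase-promoting complex, were found in 42 and 37 positive and in 2 and 3 negative cells. The mitotic kinase Pbk was at 4.73, the condensin subunit Smc2 at 4.22 (1.84 in set 4, 4.84 in set 5) and the tubulin Tubb4b at 4.26. The histone genes Hist1h4d (5.19) and Hist1h2ap (4.89) belong to families of near-identical copies, and their values are uncertain as single genes. Lockd, a long non-coding RNA, was at 4.28, with 0.67 in set 4 and 4.99 in set 5. At the other end of the G2/M list, securin (Pttg1) was at -0.20 and Dlgap5, a spindle protein, at 0.29. These were found in 17 and 20 positive cells and in 5 and 6 negative cells.

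**Figure D2:**
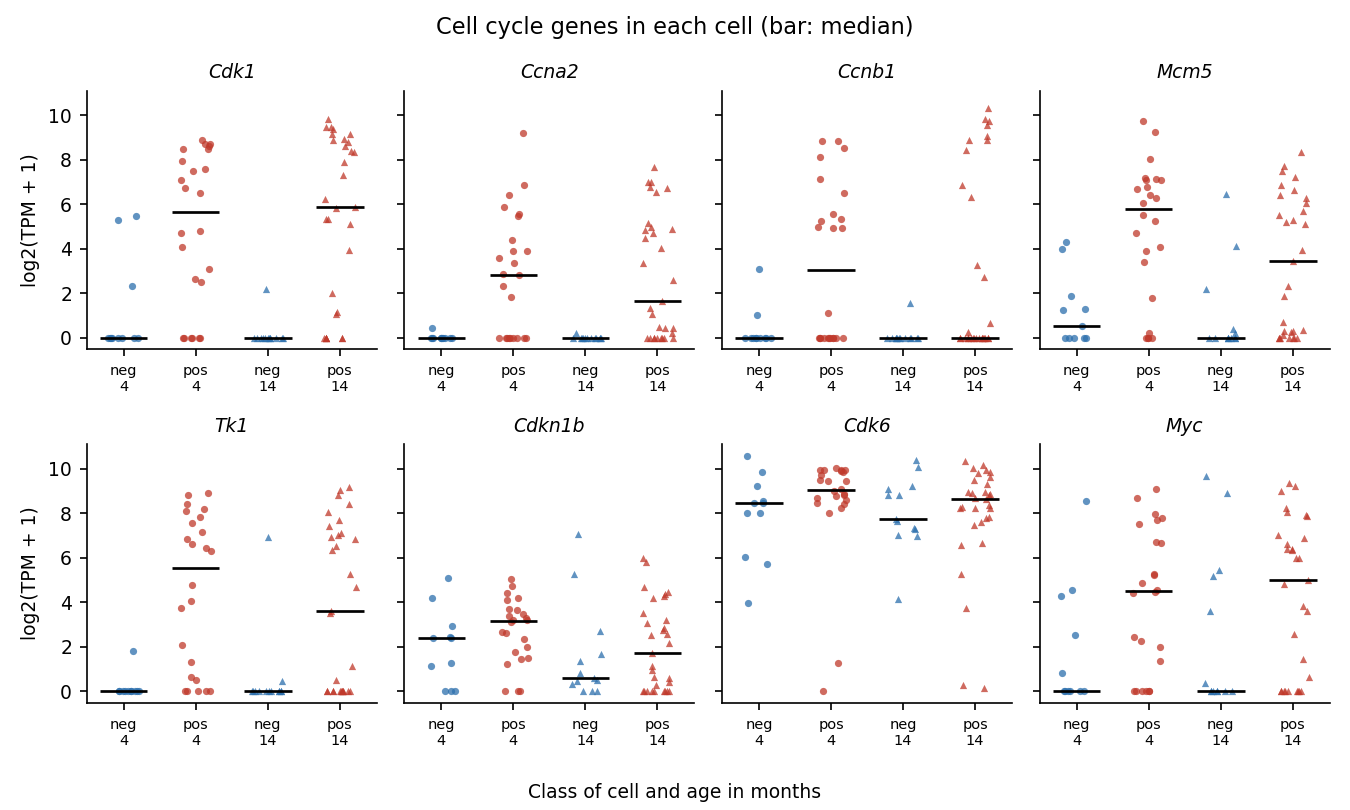
Level of 8 cell cycle genes in each positive and negative cell, as log2(TPM + 1), by class and age, with the median as a bar. Cdk1, Ccna2, Ccnb1, Mcm5, Tk1 and Myc had medians under 1 TPM in negative cells at both ages. The groups overlapped for every gene drawn, and the median of Ccnb1 in positive cells of 14 months was also 0.

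S phase genes, which replicate DNA, were also higher. Of 45 measured members, 36 were called higher and 0 lower, against 15% and 4.78% of all measured genes. The list's median was 1.49, with 2.24 at 4 months and 1.28 at 14 months. The value was 1.13 in set 4, 1.42 in set 5 and 1.84 in paired cells. List levels ran from 1.14 through 4.67 to 6.41 in positive and from 0.51 through 1.27 to 2.65 in negative cells at 4 months, where 19 of 24 positive cells exceeded every negative cell. At 14 months they ran from 0.76 through 3.32 to 4.83 and from 0.28 through 1.28 to 3.55, and 14 of 31 did so. Mcm5, a subunit of the replicative helicase, was found in 37 of 55 positive (67.3%, interval 53.3 to 79.3%) and 8 of 24 negative cells (33.3%, interval 15.6 to 55.3%), at a relative difference of 2.35. Its partner Mcm3 was at 3.71, and Tipin, of the fork protection complex, was highest at 4.14. Pcna, the polymerase clamp, was common in both groups, in 51 of 55 and 18 of 24 cells, at 1.19. Ung, which removes uracil from DNA, was lowest at -0.48. Mcm5 without Ccnb1 was seen in 21 positive cells, Ccnb1 without Mcm5 in 9, both in 16 and neither in 9.

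Nucleotide synthesis as a list depended on the cells compared. Of 27 measured members, 11 were called higher and 0 lower, against 15% and 4.78% of all measured genes. The list's median was 0.78 (1.29 at 4 months, 0.45 at 14 months). The median was 0.82 in set 4, 0.06 in set 5 and 0.09 in paired cells, and -0.0042 among cells with 2500 to 4500 genes, a range chosen after seeing the data. Dtymk, thymidylate kinase, was at 3.80 and at 4.10 in paired cells. Dut, which removes dUTP, was at 3.21 and 3.10. Tk1, thymidine kinase, was at 3.16 and 4.03 (1.78 in set 4, 3.71 in set 5), found in 35 of 55 positive (63.6%, interval 49.6 to 76.2%) and 2 of 24 negative cells (8.33%, interval 1.03 to 27.0%). Dhodh, a step of pyrimidine synthesis, lay lowest at -0.99.

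Genes of G1 and of cell cycle arrest differed little as lists. Shares over all measured genes were 15% called higher and 4.78% lower. Among 11 measured G1 cyclins, kinases and E2F factors, 3 were called higher and 0 lower, with a median of 0.21. These were Cdk4, the E2F factor E2f4 and the E2F partner Tfdp1. Cdk4, the G1 kinase, was at 3.23 (1.13 in paired cells) and had a median of 548 TPM in positive and 6.45 in negative cells. Cdk6, its close relative, was at -0.40 and found in 52 of 55 positive and in 24 of 24 negative cells. Of 17 measured CDK inhibitors and antiproliferative genes, 0 were called higher and 1, Btg3, lower, at a median of -0.07. Cdkn1b, which encodes the inhibitor p27, was at -0.07 and found in 38 of 55 (69.1%, interval 55.2 to 80.9%) and 13 of 24 cells (54.2%, interval 32.8 to 74.4%). Its highest level was 63.3 TPM in positive and 132.6 in negative cells. Btg1, an antiproliferative gene, was at -0.96, with -1.54 in set 4 and 1.00 in set 5.

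The surface genes of the sort were present in both groups. Flt3 was found in 53 of 55 positive and 21 of 24 negative cells, and Cd34 in 50 and 22. The counts were 39 and 13 for Kit and 23 and 8 for Ly6a, the gene of Sca-1. Flt3 at 4 months ran from 11.1 through 164.1 to 576.6 TPM in positive and from 8.66 through 66.2 to 1150 in negative cells. At 14 months it ran from 0 through 133.4 to 649.8 and from 0 through 65.5 to 815.2, so the ranges overlapped throughout. Their relative differences were 0.39 for Flt3, -0.11 for Kit, -0.45 for Cd34 and 0.68 for Ly6a, none past 1 on average. At 4 months Ly6a was at 1.91, and at 14 months at -0.57. Slamf1 (CD150), Cd3e and Ly6g were at 0 in every positive and negative cell. Such a count of 0 allows up to 5.45% of positive and 12.5% of negative cells by 3 cells of the group, and up to 6.49% and 14.2% by the exact interval. Itgam (CD11b) was found in 21 of 55 and 11 of 24 cells, at up to 29.9 and 13.5 TPM.

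Early lymphoid genes went both ways. Of 30 members 19 were measured, of which 1 was called higher and 1 lower and 10 lay above the median gene. Over all measured genes the shares called were 15% and 4.78%. The median relative difference was 0.0049 on average, -0.05 at 4 months and 0.25 at 14 months, -0.08 in set 4, -0.26 in set 5 and -0.52 in paired cells. Median list levels were 4.35 and 3.69 in positive and negative cells at 4 months and 3.56 and 3.08 at 14 months. Dntt, terminal transferase (ENSMUSG00000025014, chromosome 19, 41029275 to 41059525), was among the 11 of 19 measured members whose sign differed between the ages, and it was 1 of 2 that lay at least 1 from 0 at both. The other was Lsp1, an actin-binding protein of leukocytes named after its values were seen, at 1.54 and -1.80. For neither count was a share over all measured genes at hand. At 4 months Dntt ran in TPM from 0 through 372.0 to 2600 in positive and from 0 through 69.4 to 3642 in negative cells. It was found in 22 of 24 (91.7%, interval 73.0 to 99.0%) and 6 of 11 (54.5%, interval 23.4 to 83.3%). At 14 months it ran from 0 through 609.5 to 4720 and from 0 through 518.7 to 2573, found in 27 of 31 (87.1%) and 12 of 13 (92.3%). Its relative difference was 1.21 at 4 months and -1.69 at 14 months. The median TPM at 14 months lay the other way, higher in positive cells, while 4 of 31 positive and 1 of 13 negative cells were under TPM 1.

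Other lymphoid genes overlapped between the groups. Ikzf1 (Ikaros), a transcription factor needed for lymphoid fate, was at -0.04 and found in 47 of 55 and 19 of 24 cells. Satb1, a chromatin organiser of lymphoid progenitors, was at 0.01, with 48 and 17 cells. Notch1, a receptor that directs T cell fate, was found in 33 of 55 positive (60.0%, interval 45.9 to 73.0%) and 5 of 24 negative cells (20.8%, interval 7.13 to 42.2%), at a relative difference of 0.46. Il7r, the interleukin-7 receptor, was sparse, in 11 of 55 (20.0%) and 2 of 24 (8.33%). Il2rg, the common cytokine receptor chain, was highest at 1.31, with -0.57 in set 5 and -0.77 in paired cells. Tcf4, an E protein, was lowest at -1.16, with -2.81 in paired cells. It was found in 50 and 20 cells, at medians of 78.1 and 126 TPM. The B cell genes Ebf1 and Pax5 reached TPM 1 in no positive or negative cell, and Rag1 did so in 3 positive and 0 negative cells.

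Granulocyte-monocyte genes showed no common direction. Of 30 members 23 were measured, with 3 called higher (Mpo, Lyz2 and Clec12a) and 2 lower (Csf3r and Tyrobp). The shares over all measured genes were 15% and 4.78%. The list median was -0.04 (0.06 in set 4, -0.08 in set 5, 0.24 in paired cells). Mpo, myeloperoxidase (ENSMUSG00000009350, chromosome 11, 87793581 to 87804413), ran at 4 months from 0 through 214.1 to 2258 TPM in positive and from 0 through 0.42 to 527.1 in negative cells. At 14 months it ran from 0 through 52.6 to 6607 and from 0 through 0.71 to 460.7, and 7 positive cells of each age exceeded every negative cell of that age. It was found in 41 of 55 (74.5%, interval 61.0 to 85.3%) and 11 of 24 cells (45.8%, interval 25.6 to 67.2%). Its relative difference was 2.41, 2.40 at 4 months and 2.41 at 14 months, but 0.62 in set 4, 4.17 in set 5 and 0.50 in paired cells. Lyz2, lysozyme, was at 1.74 and at -0.43 in paired cells. Ctsg, cathepsin G, was found in 20 of 55 and 4 of 24 cells, and the protease gene Prtn3 in 43 of 55 and 19 of 24, at 0.62 and 0.05. Irf8, a monocyte and dendritic cell factor, was at 0.86 and Cebpa, the granulocyte factor, at -0.88. Csf3r, the G-CSF receptor, was at -1.18 (0.06 in set 4, -0.18 in set 5, -2.48 in paired cells), and Tyrobp, a signalling adaptor, at -1.15. Elane was found in 7 of 55 and 2 of 24 cells and Csf1r in 6 and 2.

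Lymphoid and myeloid transcripts met in the same cells in both groups. A lymphoid gene (Dntt, Il7r, Ccr9, Rag1 or Rag2) and a myeloid gene (Mpo, Prtn3, Ctsg, Elane or Csf1r) were both present in 45 of 55 positive cells (81.8%, interval 69.1 to 90.9%) and 17 of 24 negative cells (70.8%, interval 48.9 to 87.4%). By age the shares were 21 of 24 and 5 of 11 at 4 months and 24 of 31 and 12 of 13 at 14 months, so the order turned. Dntt and Mpo were found together in 37 of 55 positive (67.3%, interval 53.3 to 79.3%) and 10 of 24 negative cells (41.7%, interval 22.1 to 63.4%). Dntt and Prtn3 were together in 37 of 55 and 15 of 24. The intervals overlap for each of these shares, and the positive cells had more genes detected.

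Stem cell genes also went both ways. Of 30 members 18 were measured, with 2 called higher (Ifitm1 and Ifitm3) and 2 lower (Hoxa9 and Mecom). The shares over all measured genes were 15% and 4.78%. The list median was -0.15 (-0.23 at 4 months, -0.15 at 14 months, -0.14 in paired cells). Hlf, a factor of stem cell maintenance, was found in 32 of 55 positive (58.2%, interval 44.1 to 71.3%) and 11 of 24 negative cells (45.8%, interval 25.6 to 67.2%), at -0.41. Mecom, which encodes Evi1, was found in 21 and 10 cells (38.2% and 41.7%) at -1.13, with -2.06 at 4 months, -0.23 at 14 months and 0.0057 in set 5. At 14 months its highest level was 303.3 TPM in positive and 21.2 in negative cells. Hoxa9, a homeobox factor, was lowest at -1.16. Meis1, its cofactor, was at 0.81, found in 42 and 14 cells, with -0.87 in set 4 and 3.42 in set 5. Ifitm1, an interferon-induced gene of stem cells, was highest at 1.49, and at -0.94 in paired cells. Mllt3 was rare, in 10 of 55 and 2 of 24 cells. Hlf was present with Dntt in 28 positive and 8 negative cells and with Mpo in 23 and 5. Procr, the stem cell surface receptor EPCR, was found in 1 and 2 cells. Gata1, the erythroid factor, was at 0 in all of them.

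**Figure D3:**
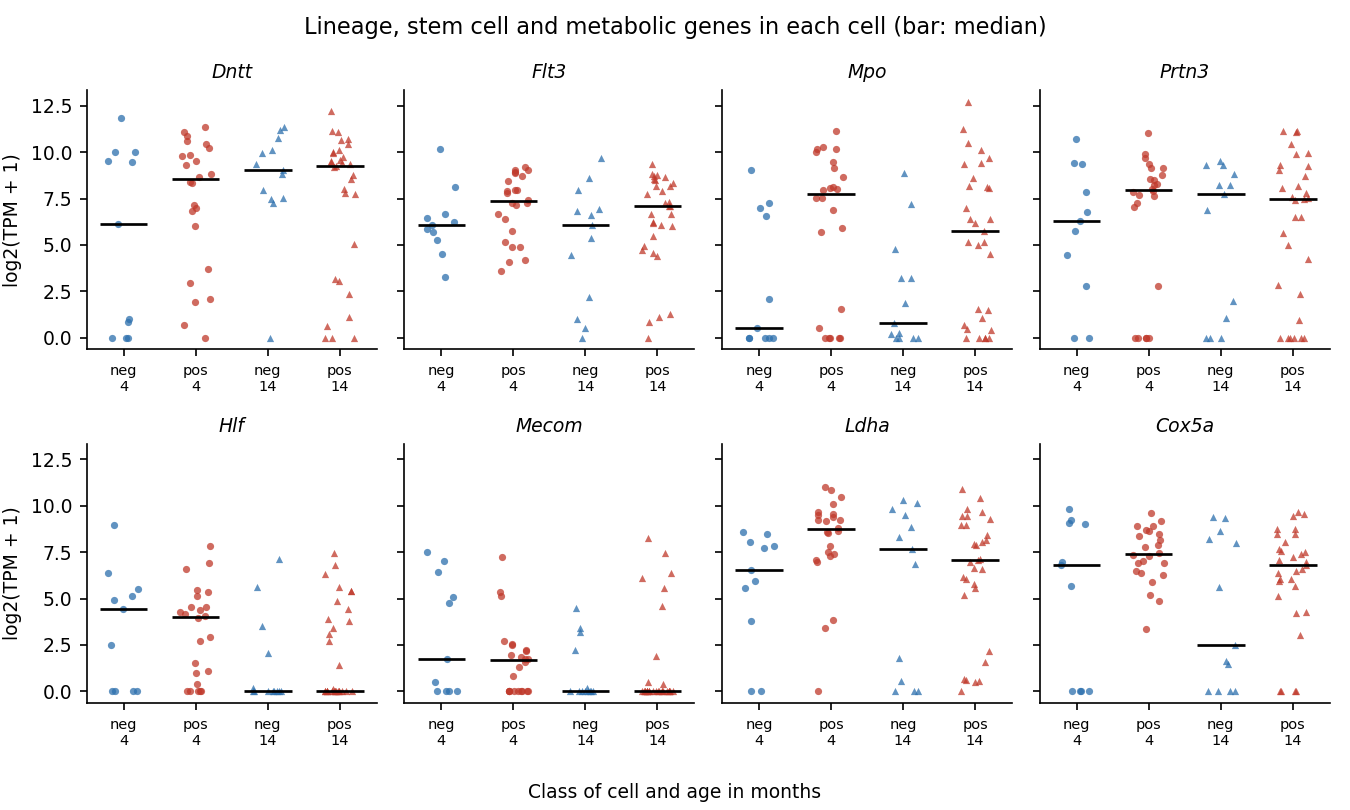
Level of 8 lineage, stem cell and metabolic genes in each positive and negative cell, as log2(TPM + 1), by class and age, with the median as a bar. Groups overlapped for every gene drawn. Mpo had medians of 214.1 and 52.6 TPM in positive cells and under 1 in negative cells.

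Respiratory chain genes of the nucleus were higher across nearly the whole list on average, and across less of it in paired cells and set 5. Of 72 measured members of 88 listed, 47 were called higher and 0 lower, against 15% and 4.78% of all measured genes. Of the 72 members, 68 lay above the median gene. Their median stood at 1.47 (4 months 1.43, 14 months 1.04), 1.12 in set 4, 0.69 in set 5, 0.78 in paired cells and 0.66 among cells of 2500 to 4500 genes. In paired cells 31 were called higher and 4 lower, against 17.8% and 14.4% of all measured genes, and 53 lay above the median gene. In set 5, 30 were called higher and 10 lower, with no share over all genes at hand, and 46 lay above the median gene. Among cells of 2500 to 4500 genes, 50 lay above it. The members were found in a median of 79.4% of cells. The median gene found in 70 to 80% of cells was at 0.61, and at 0.12 in paired cells. List levels ran from 3.39 through 7.45 to 7.97 in positive and from 0.60 through 5.93 to 6.42 in negative cells at 4 months. At 14 months they ran from 1.56 through 6.79 to 8.15 and from 1.33 through 4.54 to 6.63. Within each group and age the list level followed the number of genes detected, with Pearson correlations across cells of 0.58 and 0.80 in the positive (n = 24 and 31) and 0.82 and 0.79 in the negative cells (n = 11 and 13). The cells of an age share their sample and, within it, differ in detection for all genes at once. For the G2/M list these correlations were 0.43, 0.60, 0.50 and 0.64 in the same order, and for the granulocyte-monocyte list 0.35, 0.43, 0.81 and 0.39. Atp5o, an ATP synthase subunit, was highest at 3.56, with 0.84 in set 5 and 3.85 in paired cells. Cox5a, of cytochrome oxidase, was at 1.41 but 0.24 in paired cells. It was found in 51 of 55 positive (92.7%, interval 82.4 to 98.0%) and 16 of 24 negative cells (66.7%, interval 44.7 to 84.4%). Cycs, cytochrome c, was at 1.47, with -0.09 in set 4 and 0.88 in set 5, and Cox7a2l was lowest at -0.70.

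Transcripts of the mitochondrial genome did not follow the nuclear subunits. Of 13 measured members, 0 were called higher or lower on average, against 15% and 4.78% of all measured genes. The list's median was -0.61. It was -1.11 at 4 months, where 8 were called lower, against 13.7% of all measured genes. At 14 months it was 0.02 (0.61 in set 4, -0.50 in set 5). These genes were found in nearly all cells, as were genes of the 90 to 100% band given above. mt-Atp6, for example, ran from 6461 through 22475 to 96269 TPM in positive and from 2870 through 26552 to 69571 in negative cells.

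**Figure D4:**
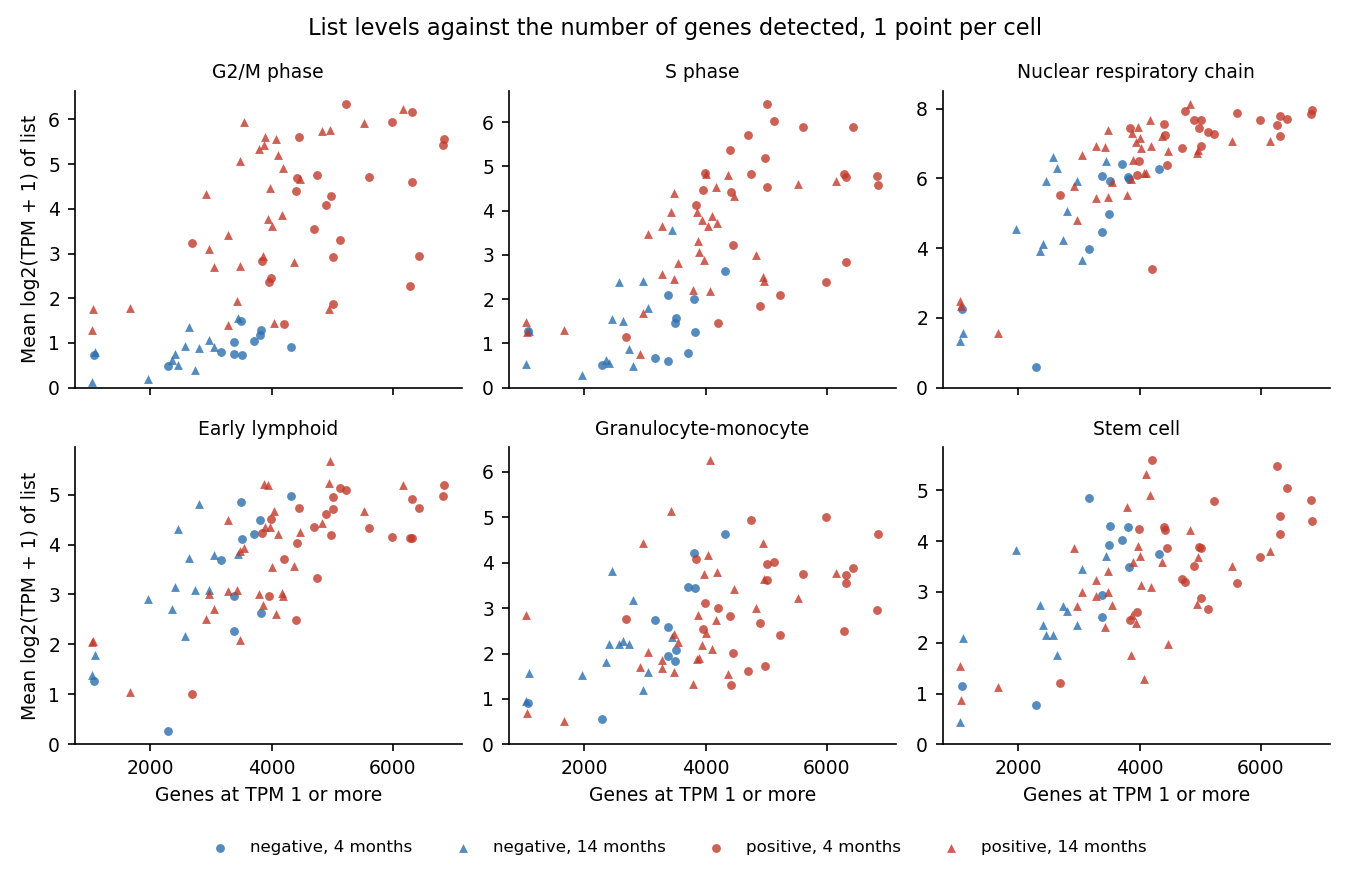
Mean log2(TPM + 1) of 6 gene lists (y axes) against the number of genes at TPM 1 or more (x axes), 1 point per positive or negative cell, circles 4 and triangles 14 months. In each group and age the level of every list drawn was higher in cells with more genes, with the Pearson correlations of the G2/M list from 0.43 to 0.64.

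Other metabolic lists lay between these. In the tricarboxylic acid cycle, 10 of 21 measured members were called higher and 0 lower, against 15% and 4.78% of all measured genes. The list's median was 0.95 (0.61 in paired cells, 0.33 in set 5). Sdhd, a subunit of succinate dehydrogenase, led at 3.35, with 4.28 in set 4, 0.33 in set 5 and 3.90 in paired cells. Fh1, fumarase, was at 2.33, with 3.86 in set 4 and -0.61 in set 5. Glycolysis had 4 of 20 members called higher (Tpi1, Ldhb, Gpi1 and Pgk1) and 1 lower (Aldoa), against 15% and 4.78% of all measured genes. Its median was 0.37, with 0.83 at 4 months and 0.09 at 14 months (-0.20 in set 4). Tpi1, triose phosphate isomerase, was at 2.33, and Ldhb, which interconverts lactate and pyruvate, at 1.86 (0.21 in set 5). Ldha, its partner, ran from 0 through 423.8 to 2084 TPM in positive and from 0 through 90.5 to 385.8 in negative cells at 4 months, where 14 of 24 positive cells exceeded every negative one. At 14 months it ran from 0 through 136.0 to 1917 and from 0 through 204.6 to 1253, with the medians in the other order. Pkm, pyruvate kinase, was at 0.61, Hk2, hexokinase, at 0.83, and Aldoa, aldolase, lowest at -1.07. Among smaller sets, Psat1 of serine synthesis was at 2.05, Taldo1 of the pentose phosphate pathway at 1.97 and Acaa2 of fatty acid oxidation at 2.09. Fatty acid oxidation as a list had 4 of 13 measured members called higher and 0 lower, against 15% and 4.78% of all measured genes. In paired cells 6 were called higher and 3 lower, against 17.8% and 14.4% of all measured genes, and the list's median was 0.17. Among cells of 2500 to 4500 genes 2 were called higher and 2 lower, at a median of 0.09, with no share over all genes at hand.

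Proteasome genes were higher as a group on average, and less so in paired cells. Of 31 measured members, 22 were called higher and 0 lower, against 15% and 4.78% of all measured genes. The list's median was 1.78 (1.53 at 4 months, 1.47 at 14 months). In paired cells it was 0.68, with 12 called higher and 5 lower, against 17.8% and 14.4% of all measured genes. In set 5, 18 were called higher and 4 lower, with no share over all genes at hand. Psma4, a core subunit, was at 2.73, with 4.70 at 4 months, 0.74 at 14 months and -1.41 in set 5. Psma6 was at 2.69 and Psmd3 lowest at -0.73. Proteasome members were found in a median of 65.9% of cells, and the median gene found in 60 to 70% of cells was at 0.59. The list level followed the number of genes detected. Pearson correlations were 0.69 and 0.83 in positive and 0.76 and 0.78 in negative cells of 4 and 14 months. Myc and ribosome biogenesis genes had 8 of 28 called higher and 0 lower, against 15% and 4.78% of all measured genes. The list's median was 0.43, with -0.09 in set 5 and 0.11 in paired cells. In paired cells 7 were called higher and 0 lower, against 17.8% and 14.4% of all measured genes. Myc, a factor that drives growth, was found in 39 of 55 positive (70.9%, interval 57.1 to 82.4%) and 9 of 24 negative cells (37.5%, interval 18.8 to 59.4%). Its relative difference was 1.36, and 2.17 in paired cells. Nop58, of the box C/D particles, was highest at 2.01. Npm1, nucleophosmin, was at 0.18 and found in 55 of 55 and 23 of 24 cells. Cytosolic ribosomal proteins had 1 of 78 called higher (Rps12) and 4 lower (Rpl10a, Rps7, Rpl37 and Rpl5), against 15% and 4.78% of all measured genes. The list's median was -0.39, with -1.14 in set 5. The number called lower depended on the cells compared, with 3 at 4 months, 25 at 14 months and 20 in paired cells. Among all measured genes 13.7%, 8.84% and 14.4% were called lower in these comparisons. The number was 22 in set 4, 46 in set 5 and 3 among cells of 2500 to 4500 genes, with no share over all genes at hand. Median list levels differed little, at 10.49 and 10.47 in positive and negative cells at 4 months and 9.96 and 10.08 at 14 months. The median gene found in 90 to 100% of cells was at -0.15. Rpl10a was lowest at -1.69 and Rps12 highest at 2.11, but at -0.78 in paired cells. Genes of this family have many processed pseudogene copies that can share reads, so single values are uncertain.

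Immediate early genes, switched on by stimulation or handling, were called lower more often than higher on average, at 5 and 1 of 20 measured members. The shares over all measured genes were 4.78% and 15%. Numbers called lower and higher were 6 and 4 at 4 months, 6 and 3 at 14 months, 7 and 7 in set 4 and 6 and 1 in set 5. The list median on average was -0.02. The medians within ages were -0.33 and -0.46, that in set 4 was 0.46 and that in set 5 was -0.31. In paired cells 8 were called lower, against 14.4% of all measured genes, and the list's median was -0.67. Atf3, a stress factor, was at -1.505 and found in 17 of 55 positive and 9 of 24 negative cells. Nr4a1, a nuclear receptor, was at -1.504, found in 41 and 17 cells at medians of 28.3 and 134 TPM. Klf6, Dusp6 and Jund were the other three called lower, and Myc was the one called higher. Txnip, an inhibitor of thioredoxin, was at 0.16 and found in 32 and 9 cells.

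**Figure D5:**
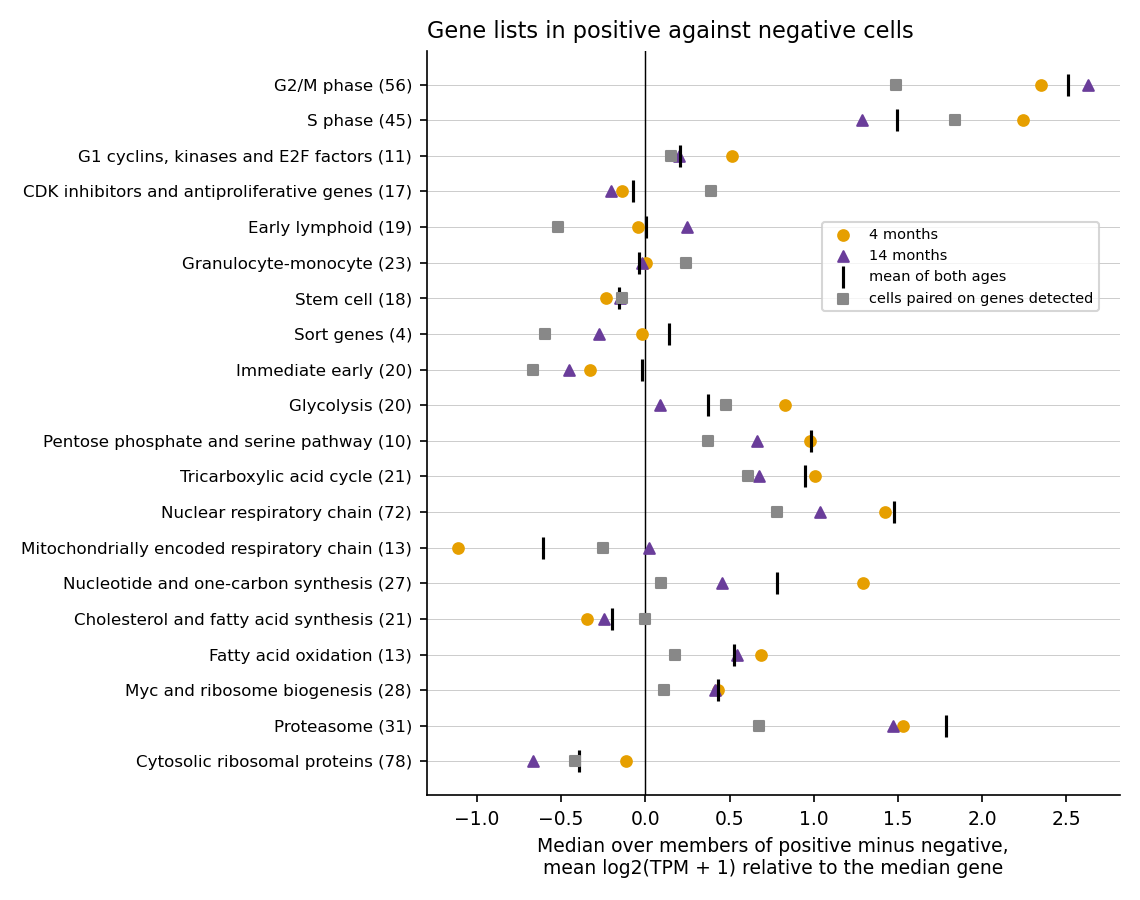
Median relative difference (positive minus negative, mean log2(TPM + 1) relative to the median gene) of 20 lists, with the number of measured members in brackets. Circles are 4 months, triangles 14 months and squares the paired cells. Bars are the median of the members' differences after averaging each gene over both ages, so a bar can lie outside the circle and the triangle. The G2/M list lies farthest right at both ages, and the lymphoid, granulocyte-monocyte and stem cell lists lie between -0.23 and 0.25 at both ages and down to -0.52 in paired cells.

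The lowest genes shared no list. Zrsr2, a splicing factor, was at -2.23 and Rab2b, a vesicle traffic gene, at -2.19, followed by Vrk3 (-2.10), Wsb1 (-2.07), Tlcd2 (-2.04), Dnajc1 (-2.01), Sdhaf3 (-1.98), Xpr1 (-1.90), Ctla2a (-1.88) and Zfp263 (-1.86). Wsb1, part of a ubiquitin ligase, ran from 0 through 108 to 901 TPM in positive and from 0 through 376 to 6553 in negative cells, found in 51 of 55 and 23 of 24. Ctla2a, a protease inhibitor, was found in 46 and 22 cells at medians of 91.8 and 168 TPM. Zfp263 was at -4.25 at 4 months and 0.51 at 14 months, so its place rests on 4 months. Tlcd2 was at 0.88 in set 5.

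Markers of other cell types ranged from absent to common. Summed levels had medians of 0 TPM in both groups for the mature B cell, T and NK cell, monocyte, erythroid, megakaryocyte and mast cell lists. The B cell gene Cd22, the T cell genes Cd3e and Cd3g, the neutrophil genes Ltf, Ngp and Ly6g, the macrophage genes Adgre1, C1qa and C1qb, the erythroid gene Alas2 and the mast cell gene Cpa3 were at 0 in every positive and negative cell. At least 1 of 5 B cell markers was found in 20 of 55 positive and 8 of 24 negative cells, with summed levels of up to 673 and 1378 TPM. At least 1 of 8 neutrophil markers was found in 42 and 15 cells, and 9 positive and 0 negative cells held 2 or more. Their summed levels reached 146 and 292 TPM, and Cxcr2, a chemokine receptor, was found in 39 of the 42 and 15 of the 15 cells. Monocyte markers were found in 23 and 6 cells and erythroid markers in 10 and 3, where 1 positive cell held 4. Dendritic cell markers were found in 28 and 5 cells, with summed levels of up to 702 and 32.5 TPM. The part of these markers in the lineage values was not tested.

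Without the 5 near-identical cells, an alternative chosen after seeing the data, the median was 2.45 for G2/M, 1.39 for S phase, 1.44 for the respiratory chain and 1.64 for the proteasome. It was 0.09 for lymphoid, -0.07 for granulocyte-monocyte and -0.19 for stem cell genes.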

How the data were processed

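Single LMPPs were sequenced, and the deposited values are TPM per gene and cell, in 168 columns that each sum to about 1000000. The submitters' processing notes name Bowtie2 2.2.0, RSEM 1.2.12 and build mm10, and other steps are not known here. Cells were grouped by age, and by set within 14 months, from the labels and column names, and no animal is named, so each age is 1 sample and no test was run. From TPM, log2(TPM + 1) was averaged per group within each age. Genes at TPM 1 or more in at least 10% of cells were kept. Symbols matched 37607 of 38924 gene IDs. Shares have exact 95% intervals. The members and lists were chosen with earlier results of these data known. Named genes are the 10 highest and 10 lowest (without Top2a, Mki67, predicted genes, mitochondrial transcripts and pseudogenes), the 2 at each end of each list and a fixed panel. Members behind a count of 5 or fewer, and markers of other cell types, were named after their values were seen. A few genes of the lists are not reported here. Scripts were tested on simulated data. Computations used scipy 1.17.1, pandas 2.3.3 and numpy 2.4.6 under Python 3.11.15, with figures from matplotlib 3.10.9.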

Additional observations from a re-analysis of the deposited data

Results flagged for a closer look

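Dntt and Lsp1, both on the early lymphoid list, had opposite signs at the 2 ages. For Dntt the relative difference, positive minus negative, was 1.21 at 4 months and -1.69 at 14 months, a gap of -2.89 (14 months minus 4 months). Its sets of 14 months were at -2.28 and -1.95. For Lsp1, named after its values were seen, it was 1.54 at 4 months and -1.80 at 14 months, a gap of -3.34, with the sets at -1.08 and -3.43. With 1 sample per age, these differences were not tested. The share of all measured genes with opposite signs at the 2 ages was not at hand.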

How the results depend on the processing

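The values rest on 1 sample per age, on 24 negative cells and on detection that differs between the groups. Medians of the G2/M, S phase, respiratory chain, proteasome and tricarboxylic acid cycle lists were above 0 under each of the 19 alternatives, whereas the lymphoid list was below 0 under 11, the granulocyte-monocyte list under 14 and the stem cell list under 18. Of 2147 values of 114 single genes, 179 had the other sign, 25 of them for the 73 genes called on average, which are given below, and 154 for genes not called. The cause of each shift was not tested. The range of 2500 to 4500 genes and leaving out near-identical cells were chosen after seeing the data. No paired analysis was possible because the numbers in the labels name single cells and no label names an animal, and the cells paired on genes detected were matched on that number alone.

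With a pseudocount of 0.1 the medians were 3.82 for G2/M, 2.196 for S phase, -0.40 for granulocyte-monocyte, -0.33 for stem cell, 2.13 for proteasome and 1.33 for tricarboxylic acid cycle genes. With 10 they were 1.29 for G2/M, 0.86 for S phase, -0.066 for stem cell, 0.93 for respiratory chain, 1.11 for proteasome and 0.51 for tricarboxylic acid cycle genes. Without the filter on low values they were 2.97 for G2/M, 0.35 for lymphoid, 0.043 for granulocyte-monocyte, 0.16 for stem cell, 1.94 for respiratory chain, 0.90 for Myc and ribosome biogenesis, 2.25 for proteasome and 1.41 for tricarboxylic acid cycle genes. Among genes in 30% of cells they were -0.35 for lymphoid, -0.33 for granulocyte-monocyte, -0.54 for stem cell and 1.46 for proteasome genes. With positive cells at TPM 10 or more they were 2.80 for G2/M, -0.30 for granulocyte-monocyte and -0.32 for stem cell genes. With negative cells listed at 0 they were -0.31 for stem cell and 1.86 for respiratory chain genes, and single genes changed sign for Aldoa (0.032) and Hoxa9 (0.042). With at least 2000 genes per cell they were -0.14 for lymphoid, -0.28 for granulocyte-monocyte and -0.0142 for stem cell genes. Without cells over 40% mitochondrial they were 2.64 for G2/M, -0.26 for granulocyte-monocyte and -0.27 for stem cell genes. Rescaled to nuclear protein-coding genes they were -0.19 for granulocyte-monocyte and -0.24 for stem cell genes. With quantile normalization they were 2.26 for G2/M, 0.19 for granulocyte-monocyte, 0.022 for mitochondrially encoded and 0.18 for ribosomal protein genes.

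In cells paired on genes detected the medians were 1.49 for G2/M, -0.52 for lymphoid, 0.24 for granulocyte-monocyte, 0.78 for respiratory chain, 0.094 for nucleotide, -0.67 for immediate early and 0.68 for proteasome genes. Among genes called on average the sign changed for Ifitm1 (-0.94), Il2rg (-0.77), Lyz2 (-0.43), Pgk1 (-0.80) and Rps12 (-0.78). Among cells with 2500 to 4500 genes they were 2.30 for G2/M, -0.26 for lymphoid, -0.21 for granulocyte-monocyte, -0.016 for stem cell, 0.66 for respiratory chain, -0.0042 for nucleotide, 1.19 for proteasome and 0.22 for tricarboxylic acid cycle genes, and -0.26 for Il2rg. Taking medians over cells gave 3.41 for G2/M, 2.57 for S phase, 0.56 for lymphoid, 2.07 for respiratory chain, 1.32 for Myc and ribosome biogenesis, 0.63 for immediate early, 4.03 for proteasome and 2.69 for tricarboxylic acid cycle genes, with Hoxa9 at 0.28 and Klf6 at 0.013. At 4 months alone they were 2.35 for G2/M, 2.24 for S phase and -0.23 for stem cell genes. At 14 months alone they were 0.25 for lymphoid, 1.04 for respiratory chain, 1.47 for proteasome and 0.021 for mitochondrially encoded genes, and 0.51 for Zfp263.

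At 14 months without set 4 the medians were -0.26 for lymphoid, 0.69 for respiratory chain, 0.058 for nucleotide, -0.090 for Myc and ribosome biogenesis, 1.13 for proteasome, 0.33 for tricarboxylic acid cycle and -1.14 for ribosomal protein genes. Among genes called on average the sign changed for Atf3 (0.12), Dusp6 (0.34), Fh1 (-0.61), Ifitm3 (-0.29), Il2rg (-0.57), Mecom (0.0057), Psma4 (-1.41), Tfdp1 (-0.44), Tlcd2 (0.88) and Zfp263 (0.29). At 14 months without set 5 they were 0.059 for granulocyte-monocyte, -0.20 for glycolysis, 0.46 for immediate early and 0.61 for mitochondrially encoded genes. Among genes called on average the sign changed for Csf3r (0.059), Cycs (-0.092), Rpl5 (0.16) and Zfp263 (0.31). The share of positive cells at 14 months was 66.7% with detection above 0, and lymphoid and myeloid genes were found together in 67.3% of positive cells at TPM 10.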
